A study of Rattus norvegicus with 19 samples.

Results

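The 10 genes described here are those used to follow reactive astrocytes, namely Gfap, Vim, Nes, Timp1, Cd44, S1pr3, Lcn2, Serpina3n, Aqp4 and Gja1. They were found by taking every probe set annotated to 1 of these symbols alone, which gave 15 of the 31042 probe sets tested. Gfap, Vim, Nes, Timp1, S1pr3, Lcn2 and Serpina3n each had a single probe set, Cd44 had 2, and Aqp4 and Gja1 had 3 each. For a gene with several, the probe set of highest mean signal stands for the gene and the others are given beside it.

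The study measured RNA on 19 Affymetrix rat arrays from adult female Fischer 344 rats, with tissue labelled as microdissected motor cortex. In 15 of the arrays the rats had received a cut of the dorsal columns with a wire knife at cervical segment 3 of the spinal cord. There were 3 arrays each at days 1, 3, 7, 14 and 49 after the cut and 4 control arrays, and no genetic change or drug is named for any group. Neither a sham operation of the controls nor the number of animals behind an array is stated in the labels, so p-values measure the spread between these samples. The comparison asks how these genes changed over time after the cut in the sampled tissue. All signals below are log2 signals, and differences are differences of log2 signals.

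Astrocytes respond to injury by a change called reactive gliosis, in which the cells enlarge and build more intermediate filament, chiefly GFAP and vimentin and, in strongly reactive cells, nestin. The change is driven in part by cytokines that signal through gp130, JAK kinases and the transcription factor STAT3. None of these genes is made by astrocytes alone: Gfap and Vim are also made by satellite glia of sensory ganglia and by Schwann cells, and Vim, Timp1 and Cd44 by fibroblasts and vessel cells.

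The region just before the start of the gene is shown for 4 members, Gfap and S1pr3 because both were higher at day 1 on every array, and Vim and Serpina3n because their windows held a searched motif. Each is 250 bases of RefSeq sequence on build GRCr8, written in the direction of the gene and ending at the base before the annotated start. Capitals mark a motif match.

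Gfap, chr10:88361662-88361911, minus strand: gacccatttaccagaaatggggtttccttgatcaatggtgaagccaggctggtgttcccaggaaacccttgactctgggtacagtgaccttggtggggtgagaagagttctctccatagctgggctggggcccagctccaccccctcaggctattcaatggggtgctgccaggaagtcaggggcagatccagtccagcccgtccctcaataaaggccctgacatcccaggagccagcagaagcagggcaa

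S1pr3, chr17:13946014-13946263, minus strand: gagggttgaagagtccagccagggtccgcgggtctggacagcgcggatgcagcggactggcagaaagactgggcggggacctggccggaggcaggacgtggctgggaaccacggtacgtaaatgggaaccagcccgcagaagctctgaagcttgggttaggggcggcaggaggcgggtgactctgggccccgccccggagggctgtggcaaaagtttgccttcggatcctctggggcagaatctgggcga

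Vim, chr17:81577011-81577260, plus strand: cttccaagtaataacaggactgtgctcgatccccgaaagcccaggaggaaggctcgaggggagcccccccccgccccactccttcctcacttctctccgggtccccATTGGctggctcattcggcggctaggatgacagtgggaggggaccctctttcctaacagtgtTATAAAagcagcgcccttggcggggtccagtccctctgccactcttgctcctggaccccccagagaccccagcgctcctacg

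Serpina3n, chr6:129088142-129088391, plus strand: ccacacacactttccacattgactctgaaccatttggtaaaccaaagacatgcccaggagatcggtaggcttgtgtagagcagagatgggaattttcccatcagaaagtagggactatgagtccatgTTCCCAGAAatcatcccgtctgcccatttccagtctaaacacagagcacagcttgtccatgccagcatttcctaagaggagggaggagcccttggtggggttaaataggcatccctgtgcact

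The 4 motifs searched on both strands were TTCNNNGAA, the pattern bound by STAT factors, TGANTCA, the pattern bound by AP-1 factors, TATAAA and CCAAT. The Serpina3n window held TTCCCAGAA at bases -123 to -115, counted back from the start. The Vim window held TATAAA at -82 to -77 and CCAAT on the opposite strand at -144 to -140, and these matches did not overlap. The Gfap and S1pr3 windows held none of these letters. Of 33469 windows of the same length, 7.67% held TTCNNNGAA, 6.34% TGANTCA, 12.9% TATAAA and 34% CCAAT. Of the other members, the Gja1 window held TGANTCA at -58 to -52, and 1 of the Aqp4 windows held CCAAT at -20 to -16.

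The arrays were first checked against their tissue label, and in all 19 most of the genes chosen for the check went against it. The lists for this check were chosen after values had been seen. A rank below is the percent of the 31042 probe sets with the same or a lower mean signal, given as a description because probe sets differ in response. Neurod6 and Tbr1, transcription factors of cortical excitatory neurons, ranked at 12.6% and 17.1%. Gad1 and Slc32a1, which make and load the transmitter of cortical interneurons, ranked at 17.8% and 9.64%. Of 11 matched cortical neuron genes, 7 ranked below 50%, while Slc17a7, the vesicular glutamate transporter, ranked at 83.4%. Mog, Mobp and Opalin, made by myelinating cells of the central nervous system, ranked at 25%, 17% and 18.5%. All 6 genes of the central astrocyte list ranked below 50%, with Slc1a2, the main astrocyte glutamate transporter, at 22%. That list left out Slc1a3, Aldoc and S100b, so it does not speak for all astrocyte genes. Another list of 7 matched astrocyte markers, which holds them, had a mean signal of 7.18 to 7.28 in controls. The 6 genes had a mean of 4.38 to 4.52 there, and the member Gja1 ranked at 92.2%.

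Genes of peripheral sensory neurons and of peripheral glia lay at the other end of the scale. Prph, a filament of peripheral neurons, had a mean signal of 12.86 with a range of 12.49 to 12.93 over the 19 arrays. Scn10a, the sodium channel of pain-sensing neurons, had a mean of 9.67 with a range of 9.27 to 9.99. The median rank was 94.2% over 12 matched genes of peripheral sensory neurons, among them Calca, Avil and P2rx3. All 6 matched genes of Schwann cells and satellite glia ranked above 75%, with Pmp22, a peripheral myelin protein, at 99.9%. The 6 matched Hox genes, which pattern the trunk, were less uniform, with a median rank of 73.5% and a range from 24.7% for Hoxc8 to 88.7% for Hoxd8. Because the label was not borne out, the samples are called the arrays labelled motor cortex, and no other tissue name is given. The values below are not assigned to astrocytes or to any other cell type.

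**Figure D1:**
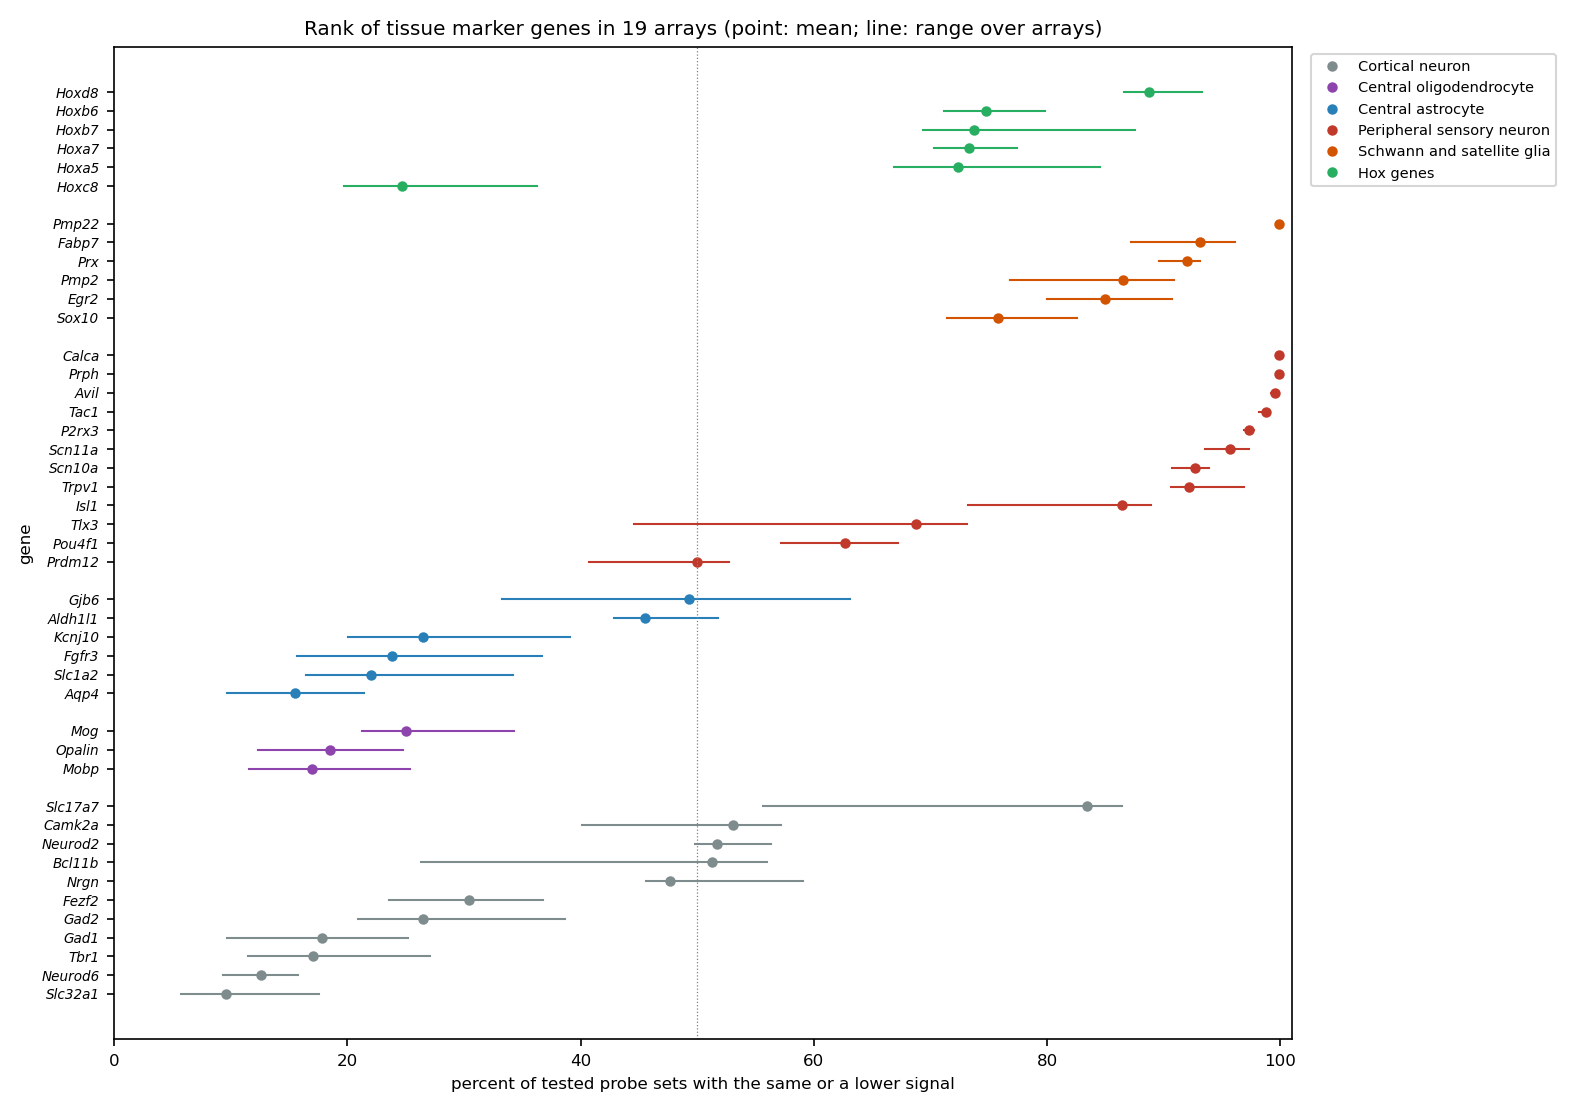
Rank of tissue marker genes on the 19 arrays, as the percent of tested probe sets with the same or a lower signal (x axis), by gene (y axis). Points give the rank of the mean signal, lines the range over arrays, and colours the list. The 12 peripheral sensory neuron genes lie at 50% or higher, and the 6 central astrocyte genes at 49.3% or lower.

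Of the 19 arrays 2 stood apart, namely replicate 2 of day 14 and replicate 2 of day 49. Their median correlations with the other arrays were 0.931 and 0.969, while the remaining 17 arrays had 0.994 to 0.997. RNA integrity was read from beta-actin, whose 3' probe set exceeded the 5' probe set by 2.24 and 0.845 in the pair and by 0.877 to 1.29 elsewhere. Results are therefore given for all 19 arrays and for the 17 without these 2. With all 19 arrays, limma called 0 of the 15 member probe sets in any of the 9 comparisons of groups or in the F test over times, at an adjusted p of 0.05. The unadjusted p was under 0.05 for 2 member probe sets at day 1, 0 at day 3, 1 at day 7, 5 at day 14 and 0 at day 49, against 1.64%, 0.908%, 0.886%, 13.1% and 15.4% of all probe sets. With 17 arrays these counts were 3, 1, 4, 4 and 4, against 7.12%, 4.56%, 4.89%, 5.68% and 12%. After adjustment 0.0354% of all probe sets were called at day 1, 0.0258% at day 3 against day 1, 0.0129% by the F test, and 0% in each of the other comparisons. With 17 arrays limma called 1 member at day 1, where 0.219% of all probe sets were called, and 2 members at day 3 against day 1, where 0.203% were called. The F test called 2 members, where 0.135% were called.

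The members sat at very different points of the signal scale. Vim ranked at 99.6%, S1pr3 at 93.8%, Gja1 at 92.2%, Timp1 at 89.7%, and Cd44 at 87.6%. Nes ranked at 63.7% and Gfap at 47.3%. Lcn2 ranked at 19.4%, Aqp4 at 15.5% and Serpina3n at 15.4%.

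**Figure D2:**
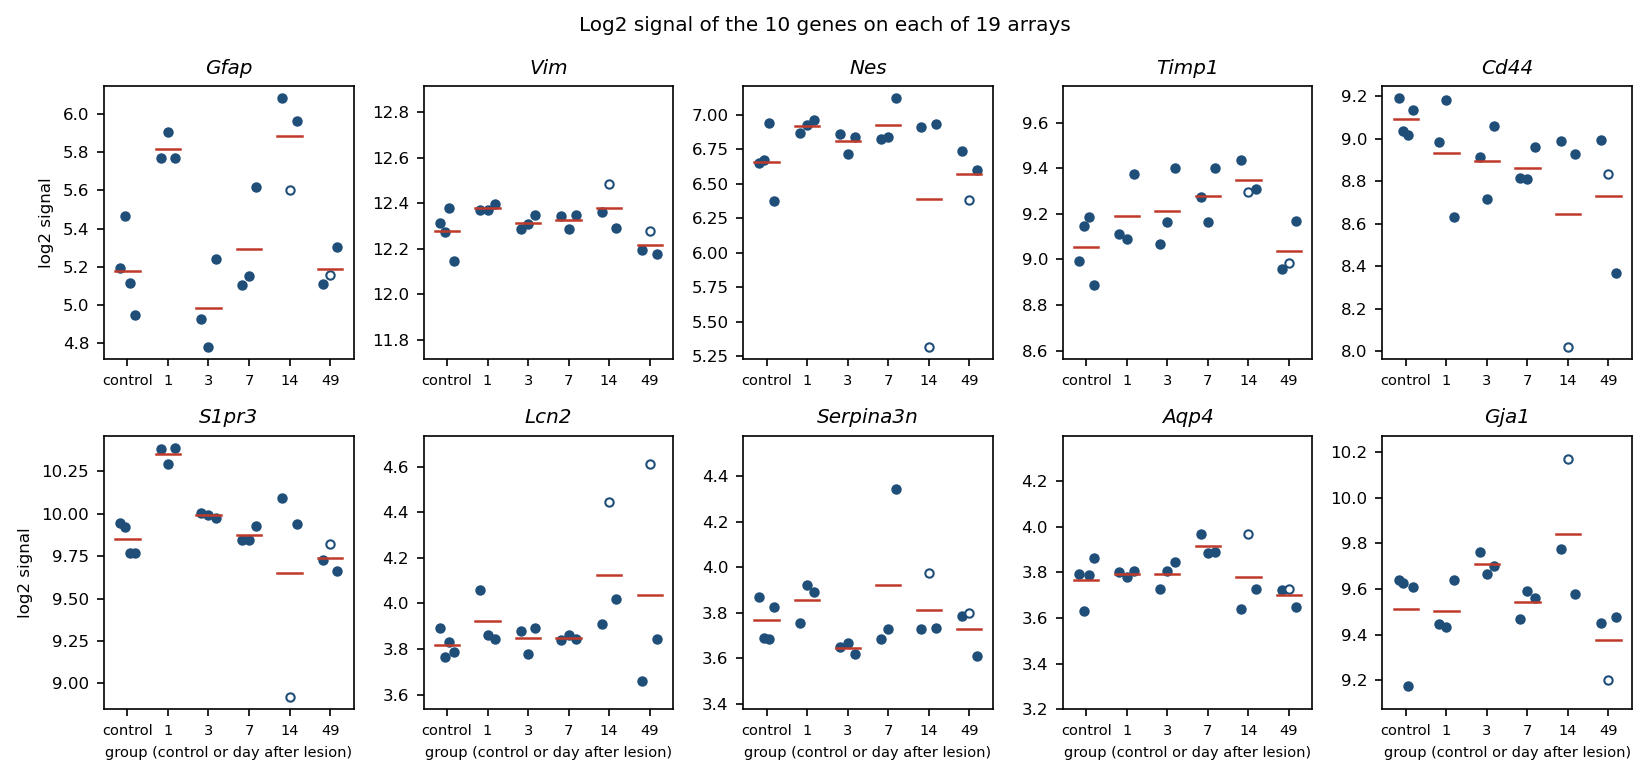
Log2 signal (y axis, a separate scale of at least 1.2 units for each gene) of the 10 genes by group (x axis). Each point is an array, red lines are group means over all arrays, and open points are day14 replicate 2 and day49 replicate 2. Gfap and S1pr3 at day 1 lie above all control arrays, and the open point at day 14 is the lowest for S1pr3, Nes and Cd44.

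Gfap, the main intermediate filament protein of mature astrocytes, was higher at days 1 and 14 than in controls and near control at days 3, 7 and 49. The 4 control arrays had log2 signals of 5.19, 5.47, 5.11 and 4.95. At day 1 the signals were 5.77, 5.91 and 5.77, and at day 3 they were 4.93, 4.78 and 5.24. Every day 1 array lay above every control array, and the day 3 arrays overlapped the controls. At day 7 the signals were 5.11, 5.15 and 5.62, and at day 14 they were 6.08, 5.603 and 5.96. At day 49 they were 5.11, 5.16 and 5.30. All day 14 arrays lay above the controls, while those of days 7 and 49 overlapped them.

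The Gfap means were 5.18 ± 0.22 in controls (SD, n = 4), 5.82 ± 0.08 at day 1, 4.98 ± 0.23 at day 3, 5.29 ± 0.28 at day 7, 5.88 ± 0.25 at day 14 and 5.19 ± 0.10 at day 49 (n = 3 each). In the order of the means, the arrays of day 14 and day 1 overlapped, as did those of day 7, day 49, control and day 3 as neighbours. Day 14 was not tested against day 1, nor day 7 against day 49. Day 1 exceeded control by 0.64 (SE 0.15, 95% interval 0.31 to 0.96, limma adjusted p = 0.615), a fold of 1.55. Day 14 exceeded control by 0.70 (95% interval 0.38 to 1.03, limma adjusted p = 0.365), a fold of 1.63. Neither passed the threshold over all probe sets.

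Without the 2 arrays that stand apart, the Gfap difference at day 1 had a limma adjusted p of 0.0976, and it passed only when control replicate 2 was also left out, at 0.0494. The day 14 difference became 0.84 (95% interval 0.51 to 1.17, limma adjusted p = 0.306), with 2 arrays left at that time. From day 1 to day 3 Gfap fell by 0.83 (95% interval -1.14 to -0.52), with a limma adjusted p of 0.207 over 19 arrays and 0.0273 over 17. With a further array left out, that fall passed the threshold in 1 of 6 cases, without day3 replicate 3, and its adjusted p ranged from 0.0211 to 0.17. The F test over times gave Gfap an adjusted p of 0.0401 with 17 arrays, a call that was lost when the replicate number was added as a block. Between days 14 and 49 the signal was lower by 0.69 on 19 arrays (difference -0.69, limma adjusted p = 0.343), and every day 49 array lay below every day 14 array. In such whole-tissue RNA, fewer cells of a type and less RNA per cell cannot be told apart.

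Vim, the filament protein of immature and reactive astrocytes and of mesenchymal cells, had a nearly constant signal. The controls read 12.31, 12.27, 12.38 and 12.15, and day 1 read 12.37, 12.37 and 12.40. Day 3 read 12.29, 12.31 and 12.35, day 7 read 12.34, 12.29 and 12.35, and day 14 read 12.36, 12.48 and 12.29. At day 49 the signals were 12.19, 12.28 and 12.18. The group means thus spanned only 12.22 ± 0.06 at day 49 (SD, n = 3) to 12.38 ± 0.02 at day 1 (SD, n = 3), and every time overlapped control. The difference at day 1 was 0.10 (95% interval -0.04 to 0.24, limma adjusted p = 1). The interval excluded a difference of log2 signal of the size that Gfap had at that time. Vim ranked at 99.6% and Gfap at 47.3%, and probe sets differ in response, so this does not compare the changes in RNA.

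Nes, the filament protein of progenitors and strongly reactive glia, read 6.65, 6.67, 6.94 and 6.38 in controls. It read 6.87, 6.93 and 6.96 at day 1, 6.86, 6.72 and 6.84 at day 3, and 6.83, 6.84 and 7.12 at day 7. At day 14 the signals were 6.91, 5.32 and 6.93, and at day 49 they were 6.74, 6.38 and 6.60. The value of 5.32 belonged to day14 replicate 2, and all times overlapped control. With all arrays the difference from control was 0.26 at day 1 (95% interval -0.33 to 0.85) and -0.27 at day 14 (95% interval -0.86 to 0.32). With 17 arrays it was 0.26 at day 1, 0.27 at day 7 and 0.26 at day 14, with limma adjusted p of 0.622, 0.986 and 0.871. The sign of the day 14 difference thus rested on 1 array.

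Among 11 other intermediate filament genes, 7 were higher and 4 lower at day 1, with a median difference of 0.01 and 0 called with either set of arrays. Nefh, the heavy neurofilament subunit, differed by 0.01 at day 1, and Synm, which builds mixed filaments with vimentin and desmin, by -0.08. Ina, a neuronal filament, differed by -0.09, and Sync, which binds desmin, by 0.22. Over all probe sets the median day 1 difference was 0.01 and 53.3% were higher. At day 14 the median of this list was -0.18 with 19 arrays and -0.01 with 17.

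S1pr3, a receptor for sphingosine-1-phosphate that couples to several G proteins and is found on reactive astrocytes and vessel cells, was the member that passed the threshold against control, at day 1 with 17 arrays. The controls read 9.95, 9.92, 9.77 and 9.77. At day 1 the signals were 10.38, 10.29 and 10.39, and at day 3 they were 10.004, 9.99 and 9.97. Both times lay above all controls, with day 1 also above all day 3 arrays. At day 7 the signals were 9.84, 9.85 and 9.93, at day 14 they were 10.09, 8.92 and 9.94, and at day 49 they were 9.73, 9.82 and 9.66. These later times overlapped the controls, and the value of 8.92 was again day14 replicate 2.

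The S1pr3 means were 9.85 ± 0.10 in controls (SD, n = 4), 10.35 ± 0.05 at day 1, 9.99 ± 0.02 at day 3, 9.87 ± 0.05 at day 7, 9.65 ± 0.64 at day 14 and 9.74 ± 0.08 at day 49 (n = 3 each). Without the 2 arrays, day 14 was 10.02 ± 0.11 (SD, n = 2) and moved from the lowest place to that next to day 1. At day 1 S1pr3 exceeded control by 0.50, a fold of 1.42. With 19 arrays the SE was 0.19 (95% interval 0.11 to 0.90, limma adjusted p = 1). With 17 arrays the same difference had an SE of 0.06 (95% interval 0.37 to 0.63), and S1pr3 rose with a limma adjusted p of 0.00122. The call held when any further array of these groups was left out, with adjusted p of 0.00355 to 0.0122 over 7 fits, and with the replicate number as a block, at a difference of 0.47 and an adjusted p of 0.0103. Neither left-out array belongs to the groups compared. They act through the spread shared by all groups. In a fit of only the control and day 1 arrays, which holds neither of them, S1pr3 did not pass the threshold. Of 22 alternative fits for this difference, 9 passed.

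S1pr3 was also lower at day 3 than at day 1, by a difference of -0.36 (95% interval -0.50 to -0.23 with 17 arrays). The limma adjusted p was 0.0299 with 17 arrays, 1 with 19, and 0.0823 to 0.149 when 1 more array was left out, so this call was lost in all 6 of those fits. This difference and that at day 1 rest on the same day 1 arrays. With 17 arrays S1pr3 exceeded control by 0.14 at day 3 and 0.17 at day 14 and lay below it by a difference of -0.15 at day 49, none past the threshold (adjusted p of 0.999, 0.855 and 0.386). The F test over times gave an adjusted p of 0.00592.

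**Figure D3:**
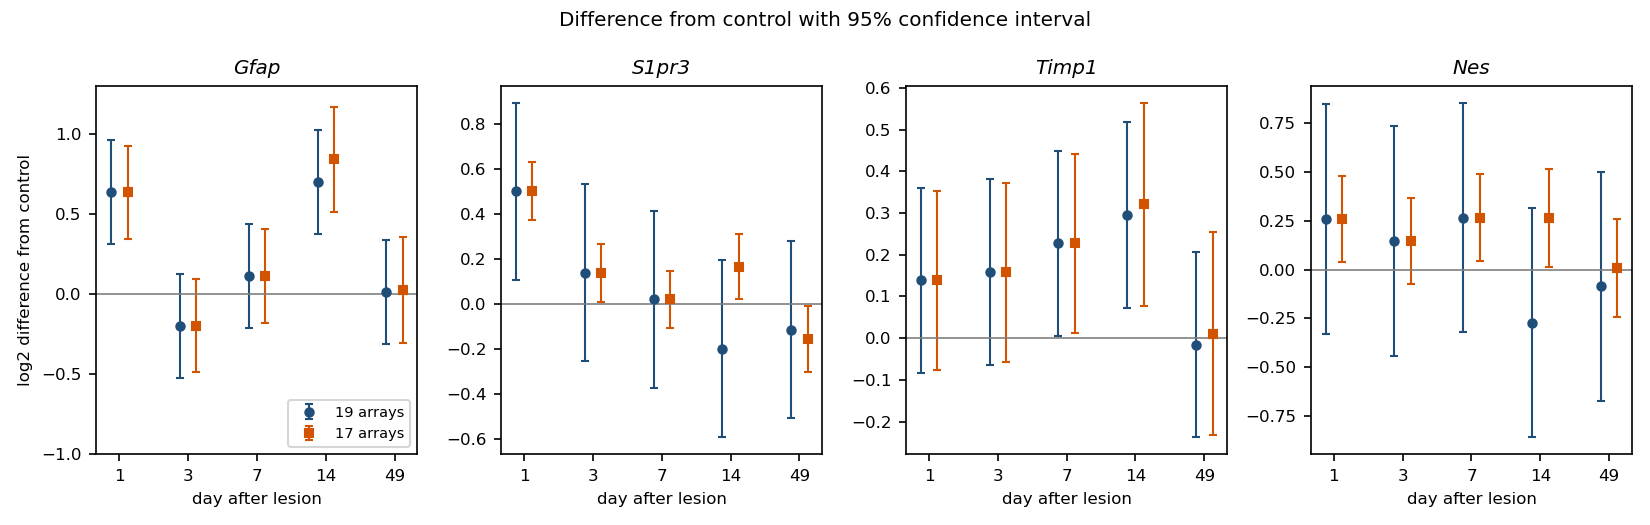
Difference of log2 signal from control (y axis, a separate scale for each gene) by day after the lesion (x axis) for Gfap, S1pr3, Timp1 and Nes. Symbols are limma estimates, circles with 19 arrays and squares with 17, and bars are 95% confidence intervals not adjusted for the number of probe sets. At day 1 S1pr3 is 0.50 above control in both fits with a shorter interval in the second, and at day 14 S1pr3 and Nes change sign between the fits.

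Of 9 other genes of the sphingosine-1-phosphate axis, 7 were matched, and at day 1 4 of these were higher and 3 lower, with 0 called. Sphk1, the inducible kinase that makes the ligand, was higher by 0.24 at day 1 (limma adjusted p = 0.3 with 17 arrays). S1pr1, the receptor of endothelium and astrocytes, differed by -0.19 at day 1 and by -0.39 at day 14 (limma adjusted p = 0.494 and 0.345 with 17 arrays). Sphk2, the other kinase, differed by -0.07 at day 1, and Sgpl1, the lyase that breaks the ligand down, by -0.27. None of these differences passed the threshold.

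Cd44, the cell surface receptor for hyaluronan and osteopontin, had lower mean signals at every time than in controls, with no call. Its first probe set read 9.19, 9.04, 9.02 and 9.14 in controls, and 8.98, 9.18 and 8.63 at day 1. It read 8.91, 8.71 and 9.06 at day 3, and 8.81, 8.81 and 8.96 at day 7. At day 14 the signals were 8.99, 8.02 and 8.93, and at day 49 they were 8.99, 8.83 and 8.37. In this probe set all arrays of days 7, 14 and 49 lay below all controls, while days 1 and 3 overlapped them. The other Cd44 probe set lay wholly below the controls at day 7 only and overlapped them at days 14 and 49.

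The difference of this Cd44 probe set from control was -0.23 at day 7, -0.45 at day 14 and -0.36 at day 49 with 19 arrays (limma adjusted p = 1, 0.365 and 0.36). With 17 arrays it was -0.14 at day 14 and -0.42 at day 49 (limma adjusted p = 0.95 and 0.3), so much of the day 14 difference came from 1 array. The other probe set read 6.58 in that array against 9.08 to 9.10 in the other day 14 arrays. With 17 arrays it differed from control by -0.34 at day 7 and -0.53 at day 49 (limma adjusted p = 0.986 and 0.252). Of 5 matched genes for Cd44 ligands and partners, 3 were higher and 2 lower at day 1, with a median of 0.01 and 0 called. Spp1, which codes for osteopontin, differed by 0.21 at day 1, and Has2, a hyaluronan synthase, by -0.06. Ezr, which ties CD44 to the actin skeleton, differed by 0.26, and Rdx, its relative, by 0.01.

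Timp1, a secreted inhibitor of metalloproteases, had a mean that was higher at each time up to day 14 and near control at day 49. It read 8.99, 9.15, 9.19 and 8.89 in controls, 9.11, 9.09 and 9.37 at day 1, and 9.07, 9.16 and 9.40 at day 3. It read 9.27, 9.17 and 9.40 at day 7, 9.44, 9.30 and 9.31 at day 14, and 8.96, 8.98 and 9.17 at day 49. Only the day 14 arrays lay wholly above the controls. The difference from control was 0.23 at day 7 (95% interval 0.0046 to 0.45) and 0.30 at day 14 (95% interval 0.07 to 0.52), with limma adjusted p of 1 and 0.365. With 17 arrays the day 14 difference was 0.32 (limma adjusted p = 0.827).

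Of the 7 matched genes of other metalloprotease inhibitors and metalloproteases, 3 were higher and 4 lower at day 1. Timp4, another inhibitor, was 6.66 ± 0.07 in controls (SD, n = 4) and 7.28 ± 0.22 at day 1 (SD, n = 3). With 17 arrays it rose by 0.62 at day 1 (limma adjusted p = 0.00401) and fell by 0.60 from day 1 to day 3 (limma adjusted p = 0.00971). With 19 arrays the day 1 difference had an adjusted p of 0.455. Mmp2, the gelatinase of mesenchymal cells, differed by -0.53 and Timp2, its partner inhibitor, by -0.14 at day 1, neither past the threshold. Mmp3, which codes for stromelysin, differed by -0.02.

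Lcn2, a secreted iron-siderophore carrier induced in inflamed astrocytes and stored in neutrophils, stayed near the bottom of the scale. It read 3.89, 3.76, 3.83 and 3.79 in controls, 4.06, 3.86 and 3.84 at day 1, and 3.88, 3.78 and 3.89 at day 3. It read 3.84, 3.86 and 3.84 at day 7, 3.91, 4.45 and 4.02 at day 14, and 3.66, 4.61 and 3.84 at day 49. The highest values, 4.45 and 4.61, were those of the 2 arrays that stand apart. All day 14 arrays lay above the controls, and the difference was 0.31 with 19 arrays and 0.15 with 17 (limma adjusted p = 0.38 and 0.881). The mean of 4 matched neutrophil and monocyte markers ranged from 4.48 to 5.67 in controls and from 5.23 to 6.34 at day 14, and the part of such cells in the Lcn2 values was not tested.

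Serpina3n, a secreted protease inhibitor and a marker of reactive astrocytes in mouse, read 3.87, 3.69, 3.69 and 3.83 in controls. It read 3.75, 3.92 and 3.89 at day 1, 3.65, 3.67 and 3.62 at day 3, and 3.69, 3.73 and 4.35 at day 7. At day 14 it read 3.73, 3.98 and 3.73, and at day 49 3.79, 3.80 and 3.61. The day 3 arrays lay just below the controls by a difference of the means of -0.12, and 1 day 7 array was high. The day 1 difference was 0.09 (95% interval -0.18 to 0.36, limma adjusted p = 1).

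Of 6 other genes that rise in reactive astrocytes of several kinds in mouse, 5 were matched, and 4 of these were higher at day 1 with a median difference of 0.20. Steap4, a metalloreductase, was 6.16 ± 0.05 in controls (SD, n = 4) and 7.10 ± 0.11 at day 1 (SD, n = 3). With 17 arrays it rose by 0.93 at day 1 (limma adjusted p = 0.000817) and fell by 1.31 from day 1 to day 3 (limma adjusted p = 8.68e-05). Cp, the copper-carrying ferroxidase, rose by 0.78 at day 1 with 17 arrays (limma adjusted p = 0.0232). With 19 arrays neither passed, with adjusted p of 1 for Steap4 and 0.615 for Cp. Aspg, an asparaginase, differed by 0.20 and Cxcl10, a chemokine, by -0.14 at day 1, neither past the threshold.

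The genes listed in mouse for the A1 form of reactive astrocyte had 5 of 8 members higher at day 1, a median of 0.03 and 0 called. Amigo2, an adhesion protein, differed by -0.41 (limma adjusted p = 0.054 with 17 arrays). Gbp2, an interferon-induced GTPase, differed by -0.02, Ggta1, a galactosyltransferase, by 0.01 and Fbln5, an elastic fibre protein, by 0.06. Fkbp5, a glucocorticoid-induced chaperone, passed the F test over times with 17 arrays at an adjusted p of 0.0372. With 19 arrays 0 of the 8 genes passed that test. With 17 arrays, which leave 2 at each of these times, Fkbp5 differed from control by -0.58 at day 14 and 0.35 at day 49. Neither difference passed the threshold alone.

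Of the genes listed for the A2 form, 9 of 12 were matched, and 6 of these were higher at day 1 with a median of 0.03 and 0 called. Cd14, the co-receptor for bacterial lipopolysaccharide, was higher by 0.76 at day 1 (limma adjusted p = 0.0691 with 17 arrays). B3gnt5, which starts a class of glycolipid chains, differed by -0.23, Emp1, a membrane protein, by -0.04 and Tm4sf1, a surface protein of the tetraspanin superfamily, by 0.04. None of the 4 passed the threshold.

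**Figure D4:**
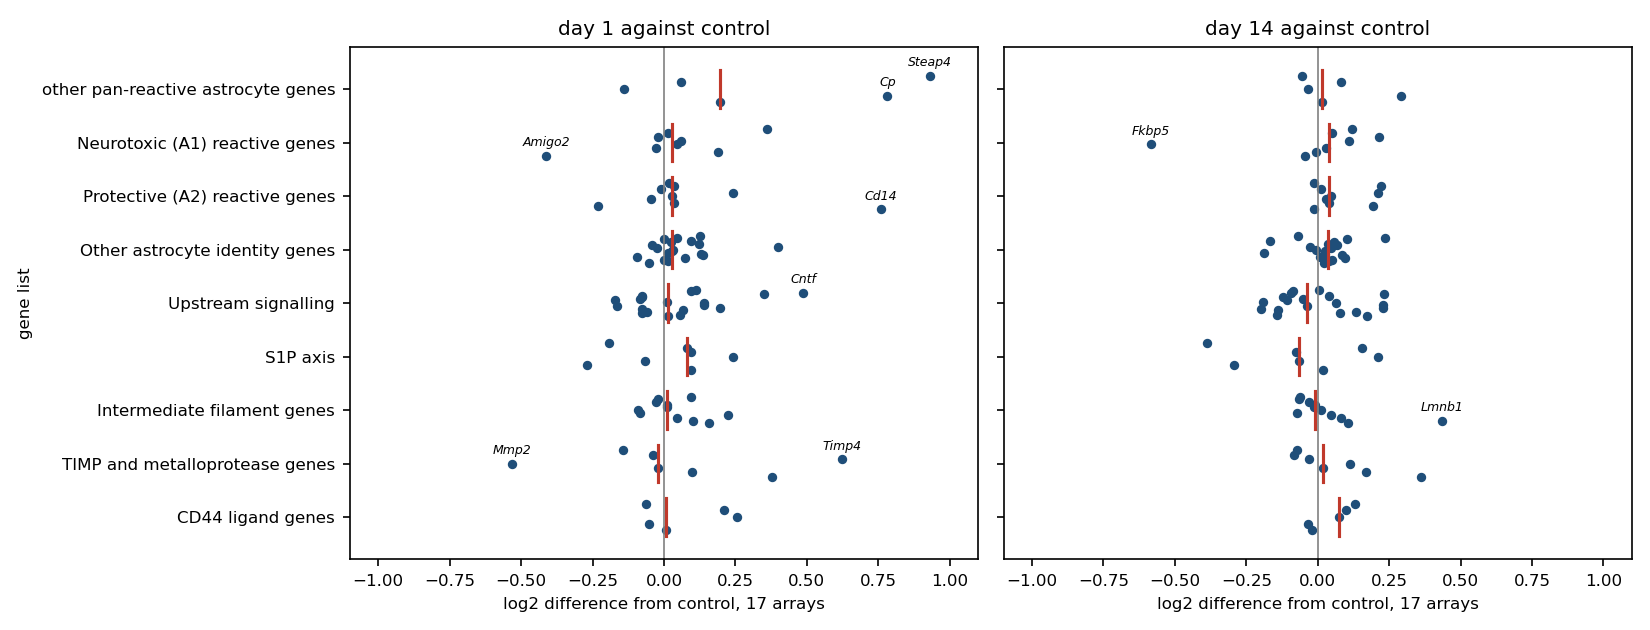
Difference of log2 signal from control (x axis) at day 1 and day 14 for the genes of 9 lists (y axis), estimated by limma with 17 arrays. Points are genes, red lines are medians of the matched genes, and genes beyond 0.4 in either direction are named. At day 1 Steap4, Cp, Cd14 and Timp4 lie at 0.62 to 0.93 while the medians of all lists but the first, at 0.20, lie between -0.02 and 0.08.

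Aqp4, the water channel of astrocyte endfeet, was near the floor in all 3 probe sets. The probe set of highest signal read 3.79, 3.63, 3.79 and 3.86 in controls, 3.80, 3.78 and 3.80 at day 1, and 3.73, 3.81 and 3.85 at day 3. It read 3.97, 3.88 and 3.89 at day 7, 3.64, 3.97 and 3.73 at day 14, and 3.72, 3.73 and 3.65 at day 49. The day 7 arrays lay above all controls by a mean of 0.15 (95% interval -0.02 to 0.31, limma adjusted p = 1). The other probe sets had control means of 3.301 and 3.248, and 1 of them lay below all controls at day 7, by a difference of -0.09. The 3 probe sets therefore did not agree in direction.

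Gja1, which codes for the gap junction protein connexin 43 of astrocytes and many other cells, read 9.64, 9.63, 9.17 and 9.61 in controls. It read 9.44, 9.43 and 9.64 at day 1, 9.76, 9.67 and 9.70 at day 3, and 9.47, 9.59 and 9.56 at day 7. At day 14 it read 9.77, 10.17 and 9.58, and at day 49 9.45, 9.20 and 9.48. The day 3 arrays lay above all controls, and the value of 10.17 was day14 replicate 2. At day 14 the difference was 0.33 with 19 arrays and 0.16 with 17 (limma adjusted p = 0.365 and 0.917). A second probe set of Gja1, at 5.50 ± 0.44 in controls (SD, n = 4), went the other way at day 14. Its difference was -0.63 with 19 arrays and -0.25 with 17. The remaining probe set, at 3.70 ± 0.12 in controls (SD, n = 4), lay below all controls at day 1.

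Of 22 other astrocyte identity genes, 19 were matched, and 14 of these were higher at day 1 with a median of 0.03 and 0 called. Glul, the glutamine synthetase, differed by 0.10 at day 1 and -0.17 at day 14 with 17 arrays. Slc1a3, the glutamate transporter GLAST, differed by 0.00 and 0.10, and Slc4a4, a bicarbonate transporter, by 0.03 and 0.00. Slc7a10, an amino acid transporter, differed by 0.14 and 0.09. None passed the threshold.

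Of 21 genes of the pathways that drive reactive gliosis, 19 were matched, and 11 of these were higher at day 1 with a median of 0.01 and 0 called. Cntf, a cytokine of Schwann cells and astrocytes that signals through gp130, was higher by 0.49 at day 1 (limma adjusted p = 0.271 with 17 arrays). Jak2, a kinase of that pathway, differed by -0.17, Tgfbr1, a receptor for TGF-beta, by -0.16 and Rela, a subunit of NF-kappaB, by 0.01. At days 1 and 3 Il6st, which codes for gp130, differed by 0.35 and 0.42, and Stat3 by 0.01 and 0.04. Jak1 differed by -0.09 and 0.02 at these times, and Jak2 by -0.22 at day 3. None passed the threshold.

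Counted over the 15 member probe sets, 2 lay wholly above control at day 1, Gfap and S1pr3, where 4.4% of all probe sets did. There were 2 at day 3, 1 at day 7, 3 at day 14 and 0 at day 49, against 2.65%, 2.86%, 6.43% and 5.27% of all probe sets. Those wholly below control numbered 1, 1, 3, 1 and 1 at the same times, against 2.54%, 2.82%, 4.19%, 2.62% and 4.8%. From day 1 to day 3, 5 member probe sets lay wholly lower, those of Gfap, S1pr3, Vim, Nes and Serpina3n, where 8.89% of all probe sets did, and 1 wholly higher, where 7.03% did. From day 14 to day 49, 4 lay wholly lower, those of Gfap, Vim, Timp1 and Gja1, where 4.07% did, and 0 wholly higher, where 1.75% did.

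Levels of other cell types at day 1 are given beside the Gfap and S1pr3 values, as the mean log2 signal of a marker list on each array. The 7 matched astrocyte markers ranged from 7.18 to 7.28 in controls and from 7.28 to 7.43 at day 1. The 12 microglia and macrophage markers ranged from 6.23 to 6.31 and from 6.28 to 6.53. The 10 matched endothelial and pericyte markers ranged from 5.79 to 5.96 and from 5.94 to 6.06. The 6 genes of Schwann cells and satellite glia ranged from 9.46 to 9.72 and from 9.60 to 9.64. Each day 1 range overlapped that of the controls, and the part of these cells in the results was not tested.

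The genes whose log2 signals followed Gfap most closely over 17 arrays, among 9559 genes with a signal above the median, were Anxa1, Fxyd6, Plekha4, S100a3 and Entpd2, with Pearson's r from 0.821 for Entpd2 to 0.846 for Anxa1. Over 19 arrays only S100a3 kept a similar value, at 0.823, and Fxyd6 came to 0.028. Those most like S1pr3 were Tnfaip1 (r = 0.884), Ezr (0.879), Azin2 (0.863), Plat (0.859) and Crabp2 (0.848), and over 19 arrays their values were 0.884, 0.822, 0.935, 0.918 and 0.515. Crabp2, a carrier of retinoic acid, exceeded control by 0.78 at day 1 (limma adjusted p = 0.000885 with 17 arrays). Tnfaip1, Ezr, Azin2 and Plat did not pass at day 1, with limma adjusted p of 0.194 to 0.759. All were chosen for likeness to S1pr3 over the same arrays, so the choice itself favoured a day 1 difference. Those most like Vim were Lama4 (r = 0.879), Prx (0.877), Dag1 (0.858), Rhpn1 (0.838) and Ece1 (0.836), and Lama4 came to -0.07 over 19 arrays. Prx codes for periaxin of myelinating Schwann cells, and Lama4 and Dag1 for a basement membrane laminin and its receptor dystroglycan. These correlations are descriptions over arrays that share the normalisation and the groups.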

How the data were processed

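RNA was measured on 19 arrays in 6 groups, taken from the labels. The authors deposited log2 signals per probe set, made with RMA per the submitters' processing notes. Which version of RMA they used is not given in the sources used. RMA equalises the distribution of signals between arrays, and a change common to all transcripts is lost in it. Of 31099 rows, none with a missing value, 57 were array controls and were not tested. Symbols came from the platform annotation, updated by gene ID (20758 probe sets) or accession (2), with 66 kept. A single symbol was found for 20826 probe sets, several for 436 and none for 9780.

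Group means were fitted with limma 3.58.1 in R 4.3.3 with eBayes, two-sided, with Benjamini-Hochberg adjustment over 31042 probe sets and a threshold of 0.05. Residual and prior degrees of freedom were 13 and 2.76, or 11 and 4.38 without replicate 2 of day 14 and of day 49. The test was checked on simulated data. The members, the gene lists, the naming rule and the fit without those arrays were chosen with earlier results of these data known, and the tissue lists after values were seen. All members were named, with list members past the threshold and up to 4 of smallest F test p per list. The 5 genes most correlated with Gfap, Vim and S1pr3 were named too. Lum was chosen after its values were seen. Il6st, Jak1 and Stat3 were named because the background names their products, also after their values were seen. Groups share replicate numbers, and deviations of like-numbered control and day 1 arrays correlated by 0.166, 0.117 and 0.269. Those of day 3 and day 1 arrays correlated by 0.0317, -0.275 and -0.256, so the signs were mixed between comparisons. The replicate number was used as a block in an alternative. Other alternatives were median centring, repeated quantile normalization, a filter at the median, eBayes with trend and robust settings, fits of only the groups compared, other probe sets and leaving out arrays. Scan dates were not analysed here. The number of arrays limits the precision. Plots used matplotlib 3.10.9.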

Additional observations from a re-analysis of the deposited data

Results flagged for a closer look

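Gja1 in control replicate 3, at 9.17, lay far below the other 3 control arrays, with a gap to the nearest that was 0.936 of the group's whole range. Chance alone marks about 1 in 20 groups of 4 in this way.

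The Gfap effect differed between day 1 and day 3 when these were set against each other in the 17 arrays, with a difference of -0.83 (limma adjusted p = 0.0273). S1pr3 differed between the same times by -0.36 (limma adjusted p = 0.0299). Neither passed the threshold with all 19 arrays, and both rest on the same 3 day 1 arrays.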

How the results depend on the processing

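With all 19 arrays, 0 member probe sets were called in all comparisons under median centring, repeated quantile normalization and the median filter. The same held under trend and robust settings and the replicate block. Fits of only the groups compared, which hold just the arrays of those groups, also called 0. For day 1 against control and day 3 against day 1, these fits held neither of the 2 arrays that stand apart. The median filter removed Gfap, Lcn2, Serpina3n and Aqp4, so it gives no value for them. Leaving out day14 replicate 2 and day49 replicate 2 moved the count to 1 at day 1, 2 at day 3 against day 1 and 2 in the F test over times. Over the fits that left out single arrays, alone or on top of these 2 (the latter added after seeing the data), counts ranged from 0 to 2 at day 1, 0 to 1 at day 3 against day 1, 0 to 2 at day 49 and 0 to 2 in the F test. The replicate block in the fit without the 2 arrays, also added after seeing the data, gave 1 call at day 1 (S1pr3), 2 at day 3 against day 1 (Gfap and S1pr3) and 1 in the F test (S1pr3, with the Gfap call lost); it changed no other member call. Without day14 replicate 2 alone the F test called S1pr3. The 2 calls at day 49 were the Cd44 probe sets with day49 replicate 3 as the only array left, whose spread is assumed to be that of the other groups.

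Of 529 alternative values for 26 single-gene differences, 33 reversed. Without the 2 arrays Nes at day 14 became 0.26 (0.14 with the replicate block), S1pr3 at day 14 0.17 (0.13 with the block) and S1pr3 from day 14 to day 49 -0.32 (-0.32 with the block). Leaving out single arrays gave -0.54 to 0.36 for Nes, -0.42 to 0.24 for S1pr3 at day 14, -0.40 to 0.31 for S1pr3 from day 14 to day 49, and -0.37 to 0.10 for Lcn2 from day 14 to day 49. Other probe sets reversed Aqp4 at day 7 (-0.092) and from day 7 to day 14 (0.16 and 0.18), and Gja1 at day 14 (-0.63) and from day 14 to day 49 (0.044). The cause of these reversals was not tested. The median of all day 14 differences was 0.07 with 19 arrays and 0.01 with 17.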

Other observations

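Among the markers of meningeal cells and fibroblasts, Lum, a small matrix proteoglycan, was 10.27 ± 0.13 in controls (SD, n = 4) and 9.35 ± 0.42 at day 1 (SD, n = 3). The difference was -0.93, with a limma adjusted p of 0.192 over 19 arrays and 0.041 over 17. Of the 10 markers of this list, 4 were higher and 6 lower at day 1 with 17 arrays, with a median difference of -0.15. Lum was the 1 called with 17 arrays and 0 were called with 19, and Lum is named here after its values were seen. The mean of the 10 ranged from 8.76 to 9.10 in controls and from 8.62 to 9.09 at day 1. Fkbp5 was 7.32 ± 0.16 at day 14 (SD, n = 2) and 8.26 ± 0.10 at day 49 (SD, n = 2) in the 17 arrays, a difference of 0.94 (limma adjusted p = 0.0793).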
